A study of Mus musculus with 8 samples.

Results

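The data compared here are cells of Tri-PyMT cultures with a high against a low content of S-phase transcripts. The score of a cell was the sum of its raw counts of 11 genes (Mcm2, Mcm3, Mcm4, Mcm5, Mcm6, Mcm7, Pcna, Rrm2, Tyms, Hells and Hist1h1b) over all of its counts. Cells with at least 1000 counts were ranked by this score within each library. The members were thus chosen by measured values: the top 25% of ranked cells (S-phase-high) were set against the bottom 25% (S-phase-low), and the counts of each set were summed into a pool. That gave 2806 cells of 5620 ranked and 7400 in all, while 1780 cells with fewer counts were not ranked. The pools held 354 and 308 cells each in the 2 libraries labelled GFP+, and 386 and 355 cells each in the 2 libraries labelled RFP+. Tri-PyMT is a mouse mammary tumour line that carries MMTV-PyMT, Fsp1-cre and Rosa26mT/mG in all groups. A cell is red (RFP) unless Cre recombinase, made from the promoter of Fsp1 (S100a4), has cut out the red cassette, after which it is green (GFP). The cultured cells were sorted by fluorescence into GFP+ and RFP+ populations, and both were profiled by Drop-seq, which captures polyadenylated RNA of single cells on barcoded beads. The labels name no added treatment and do not say whether the line is 1 clone. S-phase-high and S-phase-low cells are cells of the same libraries and not separate cultures.

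DNA replication starts with the loading of the MCM helicase at origins in G1. In S phase the helicase, the polymerases held by the PCNA clamp and the enzymes of nucleotide supply copy the genome, and new histones package it. Many genes of this machinery are targets of the E2F factors and peak around the G1/S boundary. Replication-dependent histone genes are transcribed in S phase, and most of their mRNAs end in a stem-loop in place of a poly(A) tail, so an assay that captures poly(A) records the fraction of them that was caught. The genes of mitosis follow in G2 and M.

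The 4 libraries held 2550324 to 3081011 counts, and each summed pool 496838 to 662713. The median count per cell in the S-phase-high pools was 1460 and 1413 (GFP+ labelled) and 1413.5 and 1453 (RFP+ labelled), against 1401 and 1336.5, and 1289 and 1315, in the S-phase-low pools. The reporter rows went against the labels. CUSTOM_GFP was at 77.3 to 107 CPM (counts scaled to the total of a pool) in the pools of the GFP+ labelled libraries and at 561 to 599 CPM in those labelled RFP+, and CUSTOM_RFP at 2953 to 3190.2 and 119 to 153 CPM. Populations are therefore named as labelled throughout. Markers of immune, endothelial, fibroblast and erythroid cells had 49, 3, 22 and 0 counts in all, with Lyz2, Pecam1 and Alas2 at 0, while all 7 epithelial and all 6 mesenchymal markers were detected. The summed epithelial markers ranged from 852 to 2326 CPM in the S-phase-high and from 843 to 2198 CPM in the S-phase-low pools, and the mesenchymal ones from 3009.9 to 6485 and from 3106 to 6579.6 CPM. These ranges span both populations. Longer lists of 43 epithelial and 42 mesenchymal genes had mean sums of 3930 and 14557 CPM in the S-phase-low pools labelled GFP+. In those labelled RFP+ the sums were 6479 and 10276 CPM. Why the reporter rows and the labels differ was not tested.

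The score genes took 0.807% and 0.840% of the counts of the S-phase-high pools of the GFP+ labelled libraries, against 0.168% and 0.156% of their S-phase-low pools. In the RFP+ labelled libraries the shares were 0.658% and 0.642%, against 0.125% and 0.119%. These values chose the cells and are a description only. The scores formed 1 continuous distribution with no gap at either edge: the last cell inside the S-phase-high pool of the first GFP+ labelled library had 0.573% and the next cell outside it 0.572%, and at the S-phase-low edge the values were both 0.251%. The edges lay lower in the RFP+ labelled libraries, at 0.474% and 0.469% for the S-phase-high and 0.196% and 0.191% for the S-phase-low pool. A score rested on few counts, since the cells at the S-phase-high edges had 5 to 9 score counts and those at the S-phase-low edges 2 to 5. Cells with no score count at all numbered 29 and 20 in the S-phase-low pools of the GFP+ labelled and 42 and 34 in those of the RFP+ labelled libraries.

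**Figure D1:**
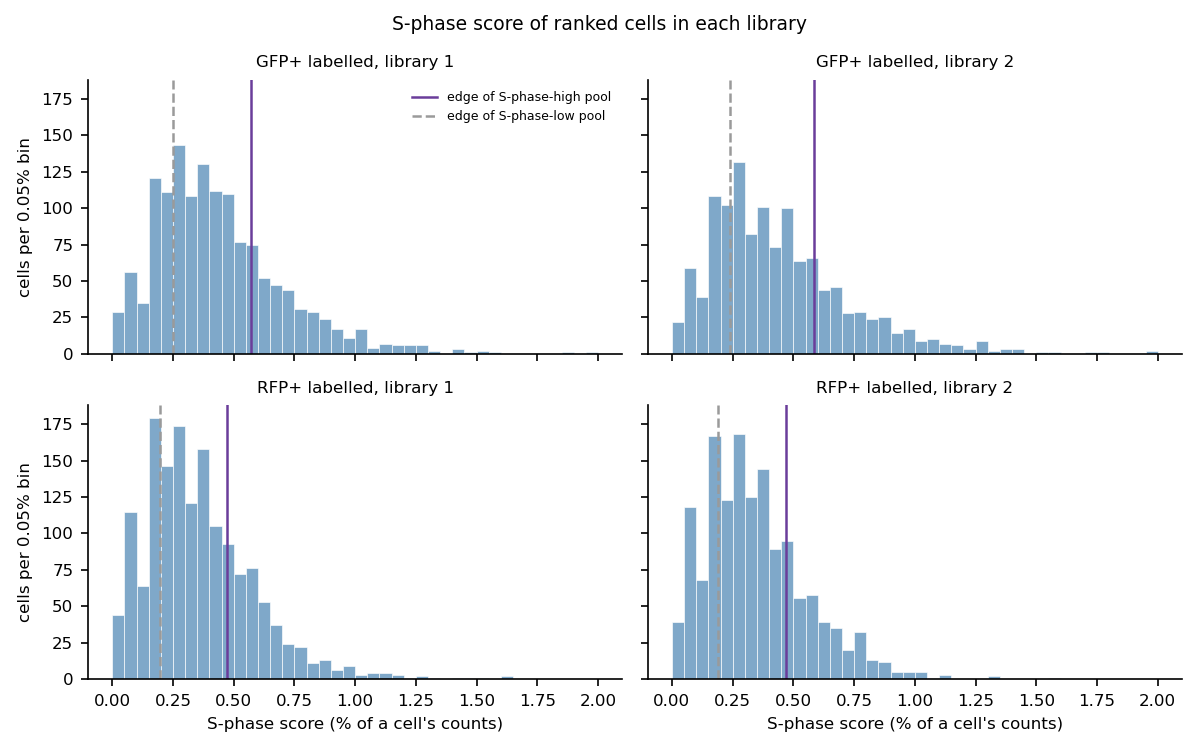
S-phase score of the ranked cells of each library (x axis, % of a cell's counts that fall on the 11 score genes; y axis, cells per bin). Solid lines mark the edge of the S-phase-high pool and dashed lines that of the S-phase-low pool; the scores run on across both edges, and the S-phase-high edge is at 0.573% and 0.584% in the GFP+ labelled and at 0.474% and 0.469% in the RFP+ labelled libraries.

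Hist1h1b, a linker histone gene of the large histone cluster on chromosome 13 (GRCm38 chr13:21779883-21780625, minus strand, GENCODE M21), gave 44.8% of all score counts, and Pcna, the sliding clamp of the replisome, 11.4%. Hist1h1b was at 4619.9 and 5271 CPM in the S-phase-high pools of the GFP+ labelled libraries, against 636 and 568 CPM in their S-phase-low pools. In the RFP+ labelled libraries it was at 3222 and 3071 CPM in the S-phase-high and 336 and 286 CPM in the S-phase-low pools. The ratio of the mean levels was 8.22 and 10.1 in the 2 populations, against 2.6 to 4.94 for the other 10 score genes. No other score gene had so large a share of the score counts.

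Whether the score genes move together can be read only where a gene did not choose the cells, so each was left out in turn and read in pools ranked by the other 10. All 11 had a positive log2 fold of S-phase-high over S-phase-low pools in both populations and were higher in both libraries of each. With edgeR's quasi-likelihood test and Benjamini-Hochberg adjustment over all genes, 6 passed an adjusted p of 0.05 in the GFP+ labelled and 5 in the RFP+ labelled libraries. Left out of the score, Mcm3, a subunit of the MCM helicase, had a log2 fold of 0.56 ± 0.13 (SE, adjusted p = 0.00423) in the GFP+ labelled and 0.75 ± 0.13 (adjusted p = 2.62e-05) in the RFP+ labelled libraries. Rrm2, the small subunit of ribonucleotide reductase, had one of 0.80 ± 0.14 (SE, adjusted p = 1.16e-06) in the GFP+ labelled and 0.44 ± 0.12 (adjusted p = 0.022) in the RFP+ labelled libraries. The log2 fold of Pcna was 0.54 ± 0.10 (SE, adjusted p = 9.14e-06) in the GFP+ labelled and 0.37 ± 0.10 (adjusted p = 0.0112) in the RFP+ labelled libraries. Ranked by the other 10 genes, Hist1h1b was at 2709.7 and 2965 CPM in the S-phase-high against 1844 and 1899 CPM in the S-phase-low pools of the GFP+ labelled libraries, and at 1614 and 1416 against 1254 and 1051 CPM in those labelled RFP+. The pools did not overlap, and the log2 fold was 0.59 ± 0.050 (SE, adjusted p = 5.10e-13) in the GFP+ labelled and 0.38 ± 0.058 (adjusted p = 6.01e-05) in the RFP+ labelled libraries. Mcm5, another helicase subunit, did not pass, at 0.46 ± 0.20 (SE, adjusted p = 0.331) in the GFP+ labelled and 0.41 ± 0.20 (adjusted p = 0.398) in the RFP+ labelled libraries. The log2 folds over the 11 genes ran from 0.22 to 0.83 and from 0.29 to 0.75. For each gene but Hist1h1b, the other 10 held Hist1h1b, with 44.8% of all score counts. Ranked by Mcm2 to Mcm7 alone, the other 5 genes had positive log2 folds. Of these, Rrm2 and Hist1h1b passed in the GFP+ labelled and none in the RFP+ labelled libraries. Tyms then had 0.084 and 0.045, and Rrm2 0.82 and 0.39. Ranked by Hist1h1b alone, Hells had 0.0076 and 0.12, and Mcm3 0.46 and 0.46.

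Genes other than the 11 were tested in the pools of the full score. Of 5563 genes with a mean of at least 20 CPM over the 8 summed pools, 48 were higher and 47 lower in the S-phase-high pools of the GFP+ labelled libraries (0.863% and 0.845% of the genes tested), and 58 higher and 46 lower in those of the RFP+ labelled libraries (1.04% and 0.827%). The calls are edgeR quasi-likelihood F tests with the library as a block and a Benjamini-Hochberg adjusted p under 0.05. At an unadjusted p under 0.05 there were 585 and 668 genes. A fold of 1.5 or more was reached by 27 higher and 26 lower genes in the GFP+ labelled libraries and by 26 and 17 in those labelled RFP+. DESeq2's Wald test made far fewer calls, 7 higher and 5 lower (GFP+ labelled) and 5 and 2 (RFP+ labelled). The 10 genes whose call in the GFP+ labelled libraries held under DESeq2, with cells thinned to 1000 counts and without any single library were Hist1h1a, Hist1h1c, Hist1h1d, Hist1h1e, Hist1h2ae, Hist1h2ak, Arl6ip1, Malat1, mt-Rnr2 and Gm26924. Among the RFP+ labelled libraries they were the 6 genes Hist1h1a, Hist1h1d, Hist1h1e, Hist1h2ae, Malat1 and Gm26924. Every other call named below was lost under at least 1 of these alternatives. The choice of score genes was not among them. Ranked by Mcm2 to Mcm7 alone, Hist1h1a had a log2 fold of -0.0596 in the GFP+ labelled libraries. Without Hist1h1b in the score, Gm26924 had -0.0501 in those labelled RFP+. Separate cultures behind the 2 libraries of each population are not stated in the labels, so the spread between them may be technical. The fit put nearly all weight on 1 spread shared by all genes (its estimated prior degrees of freedom were infinite), so a gene's own spread between libraries hardly entered its p-value, and the very small p-values rest on that shared spread. Of the called values of named genes, 9 of 59 in the GFP+ labelled and 4 of 54 in the RFP+ labelled libraries moved by over 1.5 times when 1 library of the population was left out, and each is given where the gene is described. Without the first or the second GFP+ labelled library the GFP+ counts were 7 higher and 4 lower, or 7 and 9, and without the first or the second RFP+ labelled library the RFP+ counts were 26 and 18, or 18 and 18. The RFP+ counts were also smaller without the first GFP+ labelled library, at 23 and 20, since all libraries share the estimate of the spread; the lone pair that is left is assumed to vary like the others.

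In the 2 populations, which share no cells, 15 genes were called higher in both (0.27% of genes tested) and 16 lower in both (0.288%), and none was called in opposite directions. The shared higher genes were 31.3% of the genes called higher in the GFP+ labelled and 25.9% of those in the RFP+ labelled libraries, and the shared lower genes 34.0% and 34.8%. Higher in both were Gm26924, Prim1, Hist1h2ae, Hist1h1d, Hist1h1a, 2810417H13Rik, Atad2, Fbxo5, Hist1h1c, Top2a, Hnrnpab, Hist1h1e, Hist1h2an, Hist1h2ak and Ncapd3. Lower in both were Prc1, mt-Rnr2, Ccnb1, Nusap1, Hsp90b1, Hn1, mt-Cytb, mt-Nd1, Hmmr, Malat1, Arl6ip1, Cenpf, Cenpe, Cenpa, Ube2c and Tuba1c. Of the 48 genes called higher in the GFP+ labelled libraries 47 had a positive log2 fold in those labelled RFP+, and of the 58 called in the RFP+ labelled libraries 52 had one in those labelled GFP+. For the lower genes the counts were 41 of 47 and 37 of 46. Across all 5563 genes the 2 sets of log2 folds had a Pearson r of 0.225 and a Spearman rho of 0.194, given as a description across genes that share library depth.

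**Figure D2:**
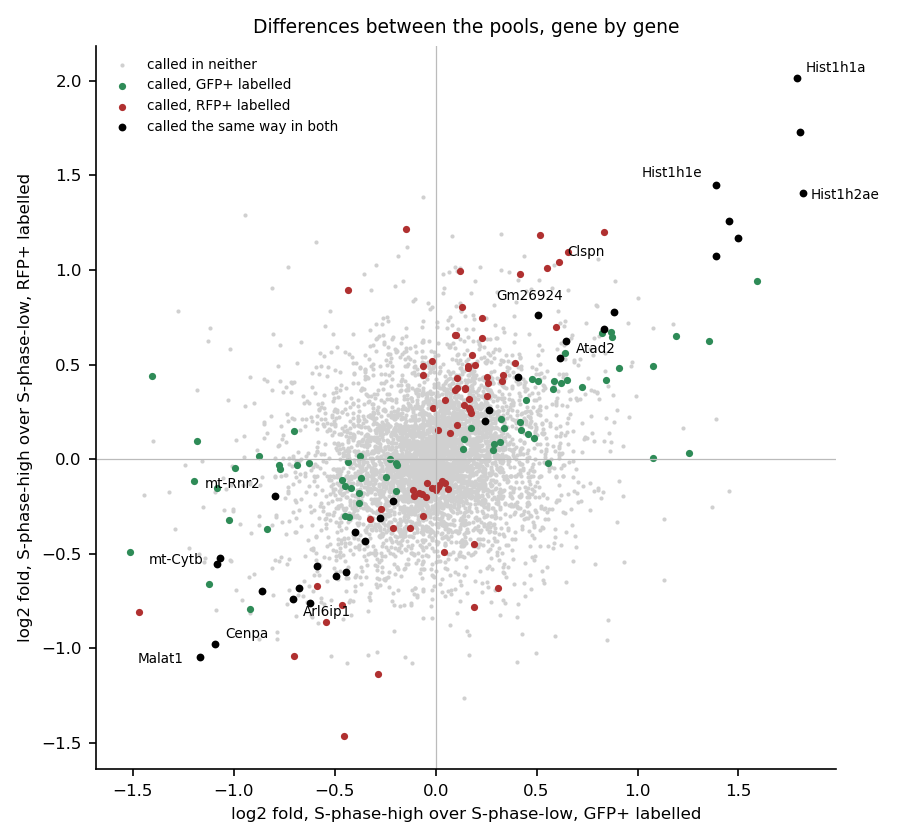
Log2 fold of S-phase-high over S-phase-low pools for 5563 genes in the GFP+ labelled (x axis) and RFP+ labelled libraries (y axis); each point is 1 gene, coloured by where edgeR called it. Histone genes lie at the upper right, with Hist1h1a at 1.79 and 2.01, and Malat1 and Cenpa at the lower left, while mt-Rnr2 is at -0.79 and -0.19.

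Under the full score, histone genes had the largest median difference of the lists in S-phase-high cells. Of 69 histone genes in the list, 61 had a row and only 10 passed the filter on low values. Of these 10, 9 were higher in the S-phase-high pools of the GFP+ labelled and 7 in those of the RFP+ labelled libraries, with median log2 folds of 1.47 and 1.21, against medians of -0.0052 and -0.011 over all genes tested. Members that passed the filter mainly through the S-phase-high pools had to differ, so the count describes the members detected at this depth and supports nothing further. Hist1h1e, a linker histone gene (GRCm38 chr13:23620629-23622558, minus strand), was at 2155 and 2527 CPM in the S-phase-high pools of the GFP+ labelled libraries, against 925 and 857 CPM in their S-phase-low pools. In the RFP+ labelled libraries it was at 1915 and 1853 CPM in the S-phase-high against 711 and 663 CPM in the S-phase-low pools. The pools did not overlap in either population. Its log2 fold was 1.39 ± 0.055 (SE) in the GFP+ labelled and 1.45 ± 0.058 in the RFP+ labelled libraries, with edgeR adjusted p of 2.89e-131 and 3.23e-129.

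Hist1h1a, another linker histone gene (chr13:23763666-23764406, plus strand), was at 251 and 285 CPM in the S-phase-high pools of the GFP+ labelled libraries, against 74.8 and 80.5 CPM in their S-phase-low pools, and at 148 and 175 CPM in the S-phase-high against 46.0 and 32.6 CPM in the S-phase-low pools of those labelled RFP+. Hist1h2ae, a core histone H2A gene (chr13:23570517-23571220, minus strand), was at 438 and 413 CPM in the S-phase-high pools of the GFP+ labelled libraries, against 124 and 119 CPM in their S-phase-low pools, and at 198 and 216 CPM in the S-phase-high against 69.8 and 85.7 CPM in the S-phase-low pools of those labelled RFP+. Both genes were higher in each S-phase-high pool than in any S-phase-low pool of their population. The linker histone genes Hist1h1d and Hist1h1c had log2 folds of 1.81 and 1.45 in the GFP+ labelled and 1.73 and 1.26 in the RFP+ labelled libraries. The H2A genes Hist1h2ak and Hist1h2an had 1.5 and 1.39, and 1.17 and 1.07. Hist1h3c and Hist1h4d, of core histones H3 and H4, passed only in the GFP+ labelled libraries, at 1.19 and 1.59, with values of 0.65 and 0.94 in those labelled RFP+. Hist1h4d had 2.44 without the first GFP+ labelled library and did not pass the filter on low values without the second. The exception was Hist1h2bc, an H2B gene, at -0.65 and -0.64, which did not pass in either (adjusted p = 0.291 and 0.409). Histone genes have near-identical copies, so how reads were split between single members is uncertain.

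By list medians under the full score, genes of the replication machinery differed by less than the histone genes. Hist1h1b gave 44.8% of the counts of that score. Without it, this order did not hold for the polymerase list in the RFP+ labelled libraries, as given below. Of 27 tested genes for polymerases, clamp loading and Okazaki fragments, 4 were higher and none lower in each population, with median log2 folds of 0.41 and 0.41. Prim1, the primase subunit that starts each new strand, was at 279 and 308 CPM in the S-phase-high pools of the GFP+ labelled libraries, against 185 and 199 CPM in their S-phase-low pools, and at 252 and 271 CPM in the S-phase-high against 159 and 202 CPM in the S-phase-low pools of those labelled RFP+. The S-phase-high pools were above the S-phase-low pools in both populations. Its log2 fold was 0.62 ± 0.13 (SE) in the GFP+ labelled and 0.53 ± 0.13 in the RFP+ labelled libraries (edgeR adjusted p = 0.00104 and 0.0059). 2810417H13Rik (Pclaf, a PCNA-associated factor) was the other gene called in both, at 0.41 and 0.44. The clamp loader subunit Rfc4 and the polymerase delta subunit Pold3 passed in the GFP+ labelled libraries, at 0.84 and 0.91, and had 0.42 and 0.48 in those labelled RFP+. Pold3 was at 85.3 and 57.3 CPM in the S-phase-high against 30.6 and 48.3 CPM in the S-phase-low pools of the GFP+ labelled libraries, and its log2 fold was 0.25 without the first and 1.49 without the second of them, so the first library carries most of it. The flap endonuclease Fen1 and the DNA ligase Lig1, which finish Okazaki fragments, had 0.55 and 0.40 in the GFP+ labelled libraries and passed in those labelled RFP+, at 1.01 and 0.51. The difference between the populations passed for none of these 4 genes, with edgeR adjusted p from 0.867 to 0.978.

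Origin licensing and firing had 1 gene higher of 20 tested in each population and none lower, with medians of 0.27 and 0.28. The called genes were Orc6, an origin recognition subunit, at 0.59 in the GFP+ labelled libraries (0.41 in those labelled RFP+), and Wdhd1, a replisome scaffold, with 0.42 in the GFP+ labelled libraries and a call in those labelled RFP+, at 0.98. Of 22 nucleotide supply genes, 2 were higher in the GFP+ labelled libraries, Tk1 (thymidine kinase, 0.45) and Dut (dUTPase, 0.42). Of the same 22 genes, 5 were higher in the RFP+ labelled libraries, among them Ppat (0.49), Atic (0.43) and Paics (0.33) of purine synthesis, and Rrm1 (0.41), the large subunit of ribonucleotide reductase. None was lower, and the list medians were 0.31 and 0.32. Each of these 2 lists had at least 18 genes with a positive log2 fold in each population, of 20 and 22 tested.

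Of 27 tested genes for histone chaperones, histone supply and upkeep of DNA methylation, 3 were higher in the GFP+ labelled and 5 in the RFP+ labelled libraries, with medians of 0.17 and 0.12. In the GFP+ labelled libraries these were Asf1b (1.07) and Chaf1a (0.62), which hand histones to new DNA, and Uhrf1 (0.65), which recruits the maintenance methyltransferase to it. In the RFP+ labelled libraries they were Slbp (1.18), which binds the stem-loop of histone mRNAs, Dnmt1 (0.55), the maintenance methyltransferase itself, the histone acetyltransferase Hat1 (0.52), the H3K27 methyltransferase Ezh2 (0.40) and the chaperone Ssrp1 (0.28). Asf1b was at 82.1 and 59.2 CPM in the S-phase-high against 28.9 and 40.3 CPM in the S-phase-low pools of the GFP+ labelled libraries, and at 57.3 and 60.9 CPM in the S-phase-high against 58.7 and 58.3 CPM in the S-phase-low pools of those labelled RFP+, where the pools overlapped. The difference between the populations, 1.07 ± 0.37 (SE) on the log2 scale, did not pass (edgeR adjusted p = 0.57). Asf1b had 0.56 without the first and Uhrf1 0.43 without the second GFP+ labelled library. Chaf1a had 0.40 in the RFP+ labelled and Slbp 0.52 in the GFP+ labelled libraries, neither past the threshold.

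Replication stress and DNA repair had 5 higher genes of 23 in the GFP+ labelled and 2 in the RFP+ labelled libraries, none lower, and medians of 0.48 and 0.38. In the GFP+ labelled libraries these included Blm (1.08), the RecQ helicase lost in Bloom syndrome, the cohesin acetyltransferase Esco2 (0.73), the fork protection factor Tipin (0.48) and the cohesin subunit Smc1a (0.32). Tipin had 0.28 without the second GFP+ labelled library. In those labelled RFP+ they were Brca2 (1.1), which loads the recombinase on single strands, and Clspn (1.04), the claspin adaptor of the replication checkpoint. Clspn was at 147 and 159 CPM in the S-phase-high against 109 and 90.6 CPM in the S-phase-low pools of the GFP+ labelled libraries, and at 172 and 171 CPM in the S-phase-high against 99.9 and 65.1 CPM in the S-phase-low pools of those labelled RFP+. The pools did not overlap in either population, which with 2 pools of each kind shows little. Only the RFP+ labelled libraries passed (edgeR adjusted p = 0.0547 in the GFP+ and 2.19e-06 in the RFP+ labelled libraries).

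Regulators of the G1/S step included 3 higher genes of 19 in the GFP+ labelled and 2 in the RFP+ labelled libraries, none lower, with medians of 0.24 and 0.14. Atad2, a chromatin-bound ATPase gene (chr15:58094044-58135082, minus strand), passed in both, at 411 and 457 CPM in the S-phase-high pools of the GFP+ labelled libraries, against 286 and 269.7 CPM in their S-phase-low pools, and at 346 and 304 CPM in the S-phase-high against 219 and 201 CPM in the S-phase-low pools of those labelled RFP+. Each S-phase-high value was above each S-phase-low value of the same population, and the log2 fold was 0.64 ± 0.11 (SE) in the GFP+ labelled and 0.63 ± 0.12 in the RFP+ labelled libraries (edgeR adjusted p = 2.45e-06 and 4.74e-05). The cyclin E genes, partners of CDK2 at S-phase entry, each passed in 1 population. Ccne2 was called in the GFP+ labelled libraries (0.87, and 0.65 in those labelled RFP+). Ccne1 was called in the RFP+ labelled libraries (0.83 in the GFP+ and 1.2 in the RFP+ labelled libraries). The difference between the populations passed for neither (edgeR adjusted p = 0.973 for both). E2f8, a repressor among the E2F factors, had 1.35 in the GFP+ labelled libraries (adjusted p = 0.00474) and 0.62 in those labelled RFP+ (adjusted p = 0.524). Fbxo5 (Emi1), an inhibitor of the anaphase-promoting complex that is in none of the lists, was called in both, at 0.84 ± 0.20 (SE) in the GFP+ labelled and 0.69 ± 0.19 in the RFP+ labelled libraries.

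**Figure D3:**
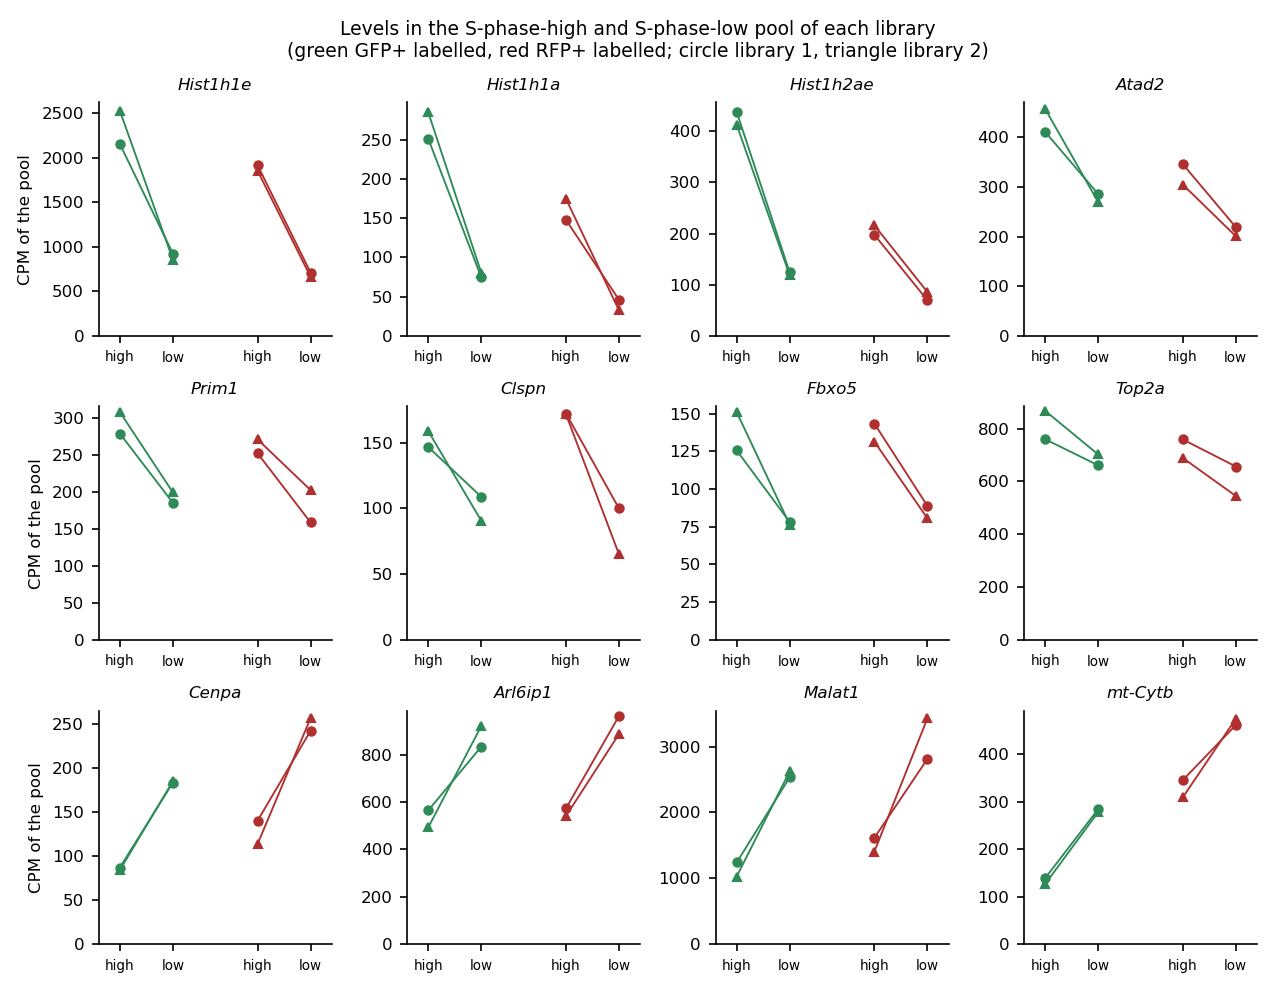
Level of 12 genes (y axis, CPM of the summed pool, from 0) in the S-phase-high and S-phase-low pool of each library, joined by a line within a library; green, GFP+ labelled, and red, RFP+ labelled. The first 8 genes slope down to the S-phase-low pool in all 4 libraries, and Cenpa, Arl6ip1, Malat1 and mt-Cytb slope up in all 4, by as much as 1405 against 3428 CPM for Malat1 in the second RFP+ labelled library.

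Several genes of mitosis were lower in S-phase-high cells. Of 40 tested genes for the spindle, the kinetochore and the destruction of cyclins, 9 were lower and none higher in each population, with median log2 folds of -0.16 and -0.17. Cenpa, the histone H3 variant of the centromere (chr5:30666777-30674830, plus strand), was at 87.0 and 84.1 CPM in the S-phase-high pools of the GFP+ labelled libraries, against 184 and 185 CPM in their S-phase-low pools, and at 140.3 and 114 CPM in the S-phase-high against 243 and 257 CPM in the S-phase-low pools of those labelled RFP+. All 4 S-phase-high pools were below all 4 S-phase-low pools, whichever the population. The log2 fold was -1.09 ± 0.18 (SE) in the GFP+ labelled and -0.98 ± 0.15 in the RFP+ labelled libraries (edgeR adjusted p = 7.79e-07 and 2.42e-08). Arl6ip1, which shapes tubules of the endoplasmic reticulum and stands in the list for its mitotic expression, was at 565 and 493 CPM in the S-phase-high pools of the GFP+ labelled libraries, against 835 and 922 CPM in their S-phase-low pools, and at 573 and 541 CPM in the S-phase-high against 964 and 888 CPM in the S-phase-low pools of those labelled RFP+, again without overlap. The lower genes that both populations shared were also Ccnb1 (-0.62 and -0.76), the cyclin that drives entry into mitosis, the kinetochore motor Cenpe (-0.44 and -0.59), the ubiquitin-conjugating enzyme Ube2c (-0.50 and -0.62), the hyaluronan receptor and spindle protein Hmmr (-0.59 and -0.57) and the spindle midzone protein Prc1 (-0.35 and -0.43). Pttg1 (securin, -0.84) and the midzone kinesin Kif23 (-0.46) were called in the GFP+ labelled libraries, and Cdc20 (-0.77), which activates the anaphase-promoting complex, and Ccnb2 (-0.67) in those labelled RFP+. In the other population these 4 had -0.37, -0.11, -0.47 and -0.59. Left with 1 library, Cenpe had -0.27 without the first and Pttg1 -0.54 without the second GFP+ labelled library, and Prc1 -0.20 without the first RFP+ labelled library.

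Genes of G2 and chromosome condensation split in direction. Of 31 tested, 3 were higher and 2 lower in the GFP+ labelled and 2 higher and 3 lower in the RFP+ labelled libraries, with medians of 0.035 and -0.059. Higher in both were Ncapd3 (0.89 and 0.78), a condensin II subunit, and Top2a (0.26 and 0.26), the topoisomerase that untangles sister chromatids. Smc4 (0.28), a condensin subunit, was called only in the GFP+ labelled libraries and had 0.050 in those labelled RFP+. Lower in both were Cenpf (-0.68 and -0.68), a kinetochore protein that accumulates in G2, and Nusap1 (-0.86 and -0.70), which binds spindle microtubules. Tacc3, a spindle protein, had 0.040 in the GFP+ labelled libraries and was called in those labelled RFP+, at -0.49. Outside the list, Pds5b, a gene of a cohesin regulator, had 0.23 in the GFP+ labelled libraries and was higher in those labelled RFP+ (0.75, edgeR adjusted p = 0.00738).

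Promoters of the called genes were searched for the 8-base E2F words TTTGGCGC and TTTCGCGC and for the 6-base words TTTGAA and TTCGAA of the cell cycle homology region (CHR) of late cell cycle genes, on both strands, where the E2F words can overlap each other. The promoters were 300 bases, 250 before and 50 after a start site, from RefSeq on GRCm38.p6. They were found for 4490 of the 5563 genes (80.7%). An E2F word stood in 2.25% of these, in 4 of 39 promoters of genes called higher in the GFP+ labelled and in 8 of 50 of those called higher in the RFP+ labelled libraries (10.3% and 16.0%). A CHR word stood in 16.7% of all, and in 35.9% and 34.0% of the same 2 sets. Of the lower genes only 37 of 47 and 35 of 46 had a promoter in the table, under 80%, so their shares are void, and the higher sets were only little above that limit, at 39 of 48 and 50 of 58. Among the promoters found, a CHR word stood in 10 of 37 and 11 of 35 of the lower genes and an E2F word in 0 of either. Since these shares are void, whether a higher count of CHR words is particular to the higher genes cannot be told. No gene that the naming rule picks and that was higher in both populations had an E2F word, so the 4 shown are, among named genes called higher in at least 1 population that hold an E2F word, those with the largest mean log2 folds, a choice made after the values were seen. Their match is thus fixed by the choice and is no result, and for Uhrf1 and Lig1 1 of several promoters of the table is shown. They are Clspn (chr4:126556730-126557029 on the plus strand), Uhrf1 (chr17:56304063-56304362 on the plus strand), Lig1 (chr7:13278576-13278875 on the plus strand) and Dhx9 (chr1:153487611-153487910 on the minus strand), an RNA helicase gene with log2 folds of 0.23 and 0.64. Cenpa (chr5:30666636-30666935 on the plus strand) and Malat1 (chr19:5802623-5802922 on the minus strand) had the 2 lowest mean log2 folds among named genes called lower in both populations. Capitals mark the E2F word in the first 4 and the CHR word in Cenpa; Malat1 holds no CHR word in this window, and all are written 5′ to 3′ on the strand of the gene. A match is a description of the letters and not a site.
Clspn: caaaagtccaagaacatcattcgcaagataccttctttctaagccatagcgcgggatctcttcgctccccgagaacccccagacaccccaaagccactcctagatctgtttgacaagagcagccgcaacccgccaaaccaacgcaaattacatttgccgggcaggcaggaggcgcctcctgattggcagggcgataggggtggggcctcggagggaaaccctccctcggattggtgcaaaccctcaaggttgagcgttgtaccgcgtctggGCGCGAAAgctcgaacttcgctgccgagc
Uhrf1: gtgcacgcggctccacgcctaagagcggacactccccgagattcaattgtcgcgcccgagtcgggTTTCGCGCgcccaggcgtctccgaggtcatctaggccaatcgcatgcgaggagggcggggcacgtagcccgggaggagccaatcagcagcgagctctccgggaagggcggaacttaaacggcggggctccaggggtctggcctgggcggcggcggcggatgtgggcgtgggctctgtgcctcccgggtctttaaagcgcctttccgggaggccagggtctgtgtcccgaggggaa
Lig1: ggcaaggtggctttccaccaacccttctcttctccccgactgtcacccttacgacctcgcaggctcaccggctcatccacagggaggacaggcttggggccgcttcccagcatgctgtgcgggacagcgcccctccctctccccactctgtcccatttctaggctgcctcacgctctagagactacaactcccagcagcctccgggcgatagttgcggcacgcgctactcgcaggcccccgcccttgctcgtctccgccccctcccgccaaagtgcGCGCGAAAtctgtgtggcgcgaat
Dhx9: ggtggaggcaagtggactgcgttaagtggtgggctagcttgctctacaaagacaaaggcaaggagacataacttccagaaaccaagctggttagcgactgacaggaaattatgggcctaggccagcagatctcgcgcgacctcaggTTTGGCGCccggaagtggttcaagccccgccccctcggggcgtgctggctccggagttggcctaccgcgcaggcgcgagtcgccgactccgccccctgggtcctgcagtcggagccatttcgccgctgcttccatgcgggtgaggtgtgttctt
Cenpa: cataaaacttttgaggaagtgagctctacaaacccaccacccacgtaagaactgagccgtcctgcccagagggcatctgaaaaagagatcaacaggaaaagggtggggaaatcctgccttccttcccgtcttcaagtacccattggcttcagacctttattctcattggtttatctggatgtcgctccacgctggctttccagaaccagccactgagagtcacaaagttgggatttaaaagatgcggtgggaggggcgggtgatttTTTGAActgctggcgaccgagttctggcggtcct
Malat1: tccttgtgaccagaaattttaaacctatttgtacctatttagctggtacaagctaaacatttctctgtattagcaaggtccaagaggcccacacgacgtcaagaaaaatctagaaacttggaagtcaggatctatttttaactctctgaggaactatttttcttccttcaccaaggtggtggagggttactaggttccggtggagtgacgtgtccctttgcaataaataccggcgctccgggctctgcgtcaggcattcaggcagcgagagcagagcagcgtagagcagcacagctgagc

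Malat1, a long RNA that stays in the nucleus (chr19:5795690-5802672, minus strand), had the most significant fall in both populations. It was at 1238 and 1024 CPM in the S-phase-high pools of the GFP+ labelled libraries, against 2531 and 2623 CPM in their S-phase-low pools. Among cells labelled RFP+ it was at 1613 and 1405 CPM in the S-phase-high against 2812 and 3428 CPM in the S-phase-low pools. The pools did not overlap, and the log2 fold was -1.17 ± 0.050 (SE) in the GFP+ labelled and -1.05 ± 0.044 in the RFP+ labelled libraries (edgeR adjusted p = 2.40e-112 and 3.81e-116). Gm26924, a gene model that is in neither annotation used here, was higher, at 6533 and 6939 CPM in the S-phase-high pools of the GFP+ labelled libraries, against 4900.3 and 4635 CPM in their S-phase-low pools, and at 5841 and 6755 CPM in the S-phase-high against 3548 and 3833 CPM in the S-phase-low pools of those labelled RFP+. Its log2 fold was 0.51 ± 0.032 (SE) in the GFP+ labelled and 0.76 ± 0.033 in the RFP+ labelled libraries. Without Hist1h1b in the score the value in the RFP+ labelled libraries was -0.0501.

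Several mitochondrially encoded RNAs were lower in S-phase-high cells. Of 8 tested, 5 were lower in the GFP+ labelled and 3 in the RFP+ labelled libraries, none higher, with median log2 folds of -0.97 and -0.42. mt-Cytb, the cytochrome b gene of complex III, was at 138 and 126 CPM in the S-phase-high pools of the GFP+ labelled libraries, against 284 and 278 CPM in their S-phase-low pools, and at 346 and 309 CPM in the S-phase-high against 462 and 475 CPM in the S-phase-low pools of those labelled RFP+, with no overlap within a population. mt-Nd1, of complex I, had log2 folds of -1.08 ± 0.16 (SE) in the GFP+ labelled and -0.55 ± 0.11 in the RFP+ labelled libraries. mt-Nd2 (-1.02) and mt-Nd5 (-0.88) were called only in the GFP+ labelled libraries and had -0.32 and 0.015 in those labelled RFP+. mt-Rnr2, the large ribosomal RNA of mitochondria, was at 1744 and 1783 CPM in the S-phase-high pools of the GFP+ labelled libraries, against 3253 and 2886 CPM in their S-phase-low pools, and at 4204 and 3696 CPM in the S-phase-high against 4471 and 4529 CPM in the S-phase-low pools of those labelled RFP+, where its log2 fold of -0.19 was -0.092 without the second library. All mitochondrially encoded genes together took 0.248% and 0.24% of counts in the S-phase-high against 0.448% and 0.396% in the S-phase-low pools of the GFP+ labelled libraries. In those labelled RFP+ the shares were 0.561% and 0.493%, against 0.610% and 0.631%. Of the 74 nuclear genes of oxidative phosphorylation, 2 were lower in the GFP+ labelled libraries, the cytochrome oxidase subunits Cox6a1 (-0.38) and Cox6b1 (-0.25), and none was called in those labelled RFP+ (medians -0.013 and -0.083). The part of the mitochondrial share and of the counts per cell, both of which moved with the pools, in the other differences was not tested.

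The 2 populations differed in the size of the difference for only 2 of 5563 genes (0.036%), both with a lower value in the GFP+ labelled libraries. The difference of the log2 folds, GFP+ minus RFP+ labelled, was -0.60 ± 0.056 (SE) for mt-Rnr2 (edgeR adjusted p = 5.61e-23), where the fall was larger in the GFP+ labelled libraries. It was -0.26 ± 0.046 for Gm26924 (adjusted p = 7.07e-05), which rose more in those labelled RFP+. No gene differed in the other direction. At an unadjusted p under 0.05 there were 335 genes in both directions, and DESeq2 called none at an adjusted and 3 at an unadjusted p under 0.05. Neither call held without the first GFP+ labelled library. Without Hist1h1b in the score the difference for Gm26924 turned to 0.18. The gap in score between the pools was not the same in the populations, as given above, so the 2 effects compare unequal steps.

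The 2 middle pools, each again 25% of the ranked cells of a library, show which parts of the order carry these differences. Pool 1 holds the S-phase-low and pool 4 the S-phase-high cells. Summed over the list, histone genes were at 128%, 149.6% and 248.9% of pool 1 in pools 2, 3 and 4 of the first GFP+ labelled library, and at 114%, 146% and 249.2% in the first RFP+ labelled library. The step into pool 4 was the largest in all 4 libraries, and so was the step in the score itself. The score genes took 0.168%, 0.318%, 0.471% and 0.807% of counts in pools 1 to 4 of the first GFP+ labelled and 0.125%, 0.258%, 0.393% and 0.658% in those of the first RFP+ labelled library, so the pools are not evenly spaced. Mitochondrially encoded genes differed mainly at that step too: in the GFP+ labelled libraries they were at 93.9% and 93.3% of pool 1 in pool 3 and at 55.5% and 60.8% in pool 4. Those labelled RFP+ had them at 106% and 95.0%, and at 92.0% and 78.2%. Most of each sum was mt-Rnr2, so the percentages mainly describe that RNA. It gave 1744 of 2481 CPM in pool 4 of the first GFP+ labelled library. In pool 4 of the first RFP+ labelled library it gave 4204 of 5601 CPM. Mitotic genes were instead already at a lower level before the step into pool 4. In pool 2 they were at 97.9% and 93.4% (GFP+ labelled) and 91.8% and 93.2% (RFP+ labelled) of pool 1. In pool 3 they were at 81.1% and 86.0% (GFP+ labelled) and 82.1% and 90.0% (RFP+ labelled), against 84.0%, 83.1%, 79.3% and 83.5% in pool 4. Their sum fell at each step in all libraries but the first GFP+ labelled one.

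**Figure D4:**
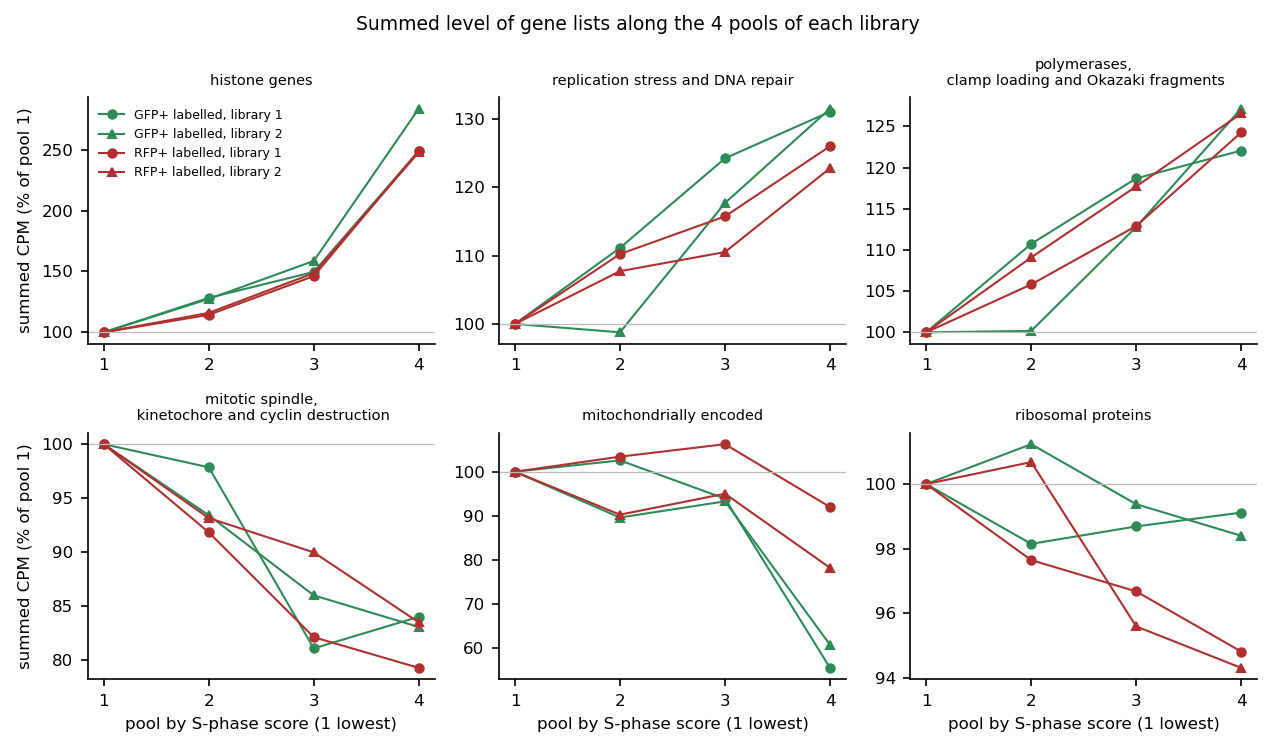
Summed CPM of 6 gene lists in the 4 pools of each library by S-phase score (x axis, pool; y axis, % of pool 1, not starting at 0; a line per library, green GFP+ labelled and red RFP+ labelled). Histone genes reach 248% to 284% in pool 4, while the sum of mitochondrially encoded genes, most of it mt-Rnr2, drops mainly there.

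Which genes differed depended on the score genes used to rank the cells. With Hist1h1b left out of the score, a choice added after seeing the data, 2 genes were higher and 6 lower in the GFP+ labelled and 9 higher and 24 lower in the RFP+ labelled libraries. The median log2 fold of the histone list was then 0.40 and 0.10, against 1.47 and 1.21 with all 11 genes and 1.68 and 1.83 with Hist1h1b alone. The median of the mitochondrially encoded genes was -0.15 and -0.028 without Hist1h1b and -1.21 and -0.47 with it alone. Mitotic genes went the other way, with medians of -0.21 and -0.30 without Hist1h1b and -0.0080 and 0.039 with Hist1h1b alone. The polymerase list stayed positive under each of these scores, from 0.18 to 0.41 in the GFP+ labelled and from 0.26 to 0.41 in the RFP+ labelled libraries.

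Single genes showed the same dependence. Without Hist1h1b in the score, Hist1h1e had log2 folds of 0.27 and 0.14, mt-Cytb -0.12 and 0.14, and Malat1 -0.31 and -0.28, all smaller in size than with the full score, and with the sign of mt-Cytb turned in the RFP+ labelled libraries. Top2a changed sign, at -0.18 and -0.16, against 0.57 and 0.42 with Hist1h1b alone. Arl6ip1 was lower in both populations under each choice of score genes tried, with -0.57 and -0.46 when cells were ranked by Mcm2 to Mcm7 alone (edgeR adjusted p = 0.00282 and 0.0209). Atad2 kept its call in both populations without Hist1h1b, at 0.55 and 0.54 (adjusted p = 0.0134 and 0.0283). Clspn had 0.74 and 0.78, with a call in the RFP+ labelled libraries. Ranked by Mcm2 to Mcm7 alone, 1 and 4 genes outside the 11 were called lower by edgeR, and 0 higher in either population.

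**Figure D5:**
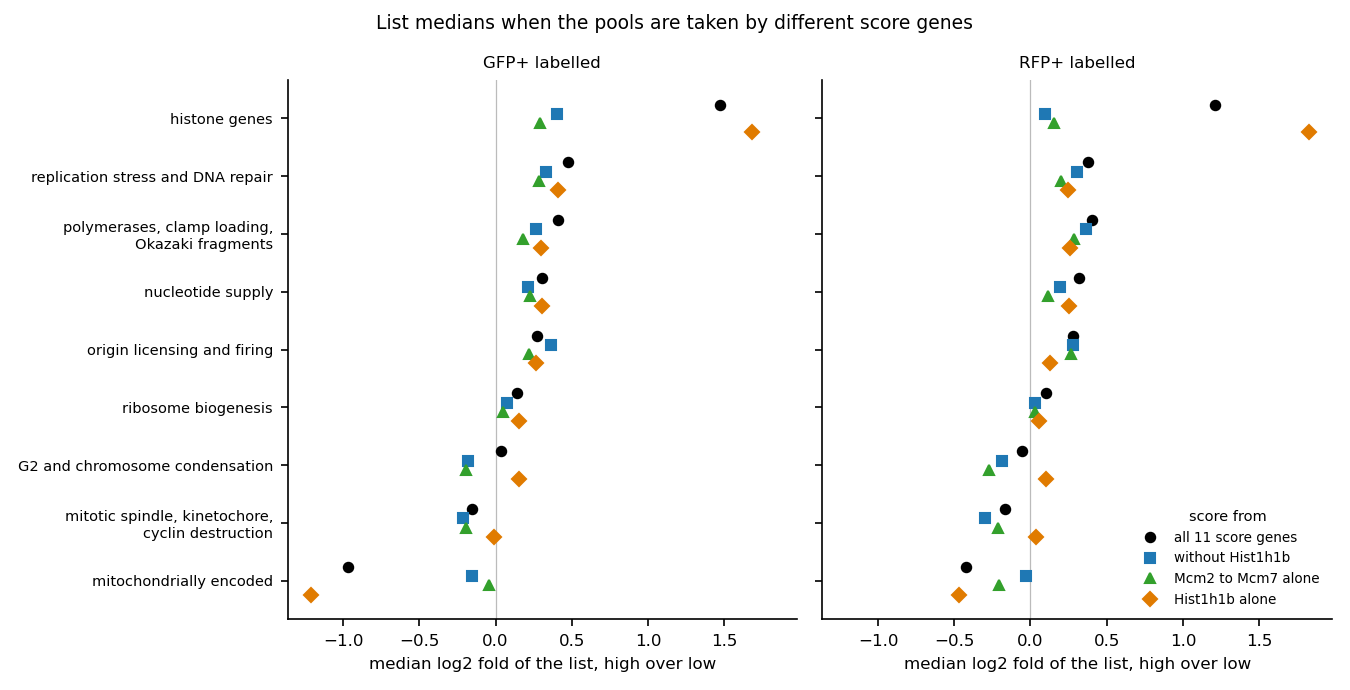
Median log2 fold of S-phase-high over S-phase-low pools for 9 gene lists (x axis) in the GFP+ labelled (left) and RFP+ labelled libraries (right), with cells ranked by all 11 score genes, without Hist1h1b, by Mcm2 to Mcm7 alone or by Hist1h1b alone. Histone genes and mitochondrially encoded genes move with Hist1h1b (0.40 and -0.15 without it in the GFP+ labelled libraries), and the replication lists lie right of 0 under all 4 scores.

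Most lists of other programmes had few calls. Over all genes tested, 0.863% were higher and 0.845% lower in the GFP+ labelled libraries. In those labelled RFP+ the shares were 1.04% and 0.827%. Of 74 ribosome biogenesis genes, 2 were higher in the GFP+ labelled libraries, Pa2g4 (0.29) and the nucleolin gene Ncl (0.14), and none was called in those labelled RFP+, with medians of 0.14 and 0.11. Of the 74 log2 folds, 62 and 54 were positive. Of 83 ribosomal protein genes, none was called in the GFP+ labelled libraries. In those labelled RFP+ 1 was higher and 12 were lower, by at most 0.19 on the log2 scale. No list had more lower calls there, but this list was also the largest. In the same libraries 9 of 40 mitotic and 3 of 8 mitochondrially encoded genes were lower. The medians of the ribosomal protein genes were -0.0062 and -0.093, with 46 and 74 of 83 log2 folds negative. Of 23 mesenchymal genes, 3 were lower in the GFP+ labelled libraries, the membrane collagenase Mmp14 (-0.77), fibronectin Fn1 (-0.63) and the integrin Itgb1 (-0.23), and 1 was lower in those labelled RFP+, the protease inhibitor Timp2 (-0.30). Mmp14 was at 77.3 and 120.4 CPM in the S-phase-high against 192 and 139 CPM in the S-phase-low pools of the GFP+ labelled libraries and had -0.054 in those labelled RFP+, and its difference between populations did not pass (adjusted p = 0.612). Fn1 was at 91.8 and 103 CPM in the S-phase-high against 185 and 113 CPM in the S-phase-low pools of the GFP+ labelled libraries. Without the first GFP+ labelled library the log2 folds were -0.20 for Mmp14 and -0.12 for Fn1, and without the second -1.3 and -0.999, so both calls rest mainly on the first library. Of 24 epithelial genes none was called in the GFP+ labelled libraries, and the desmosome gene Dsp (0.89) was higher and Cd24a (-0.26, and -0.10 without the second library) lower in those labelled RFP+. The epithelial median was -0.19 in the GFP+ labelled and -0.0067 in the RFP+ labelled libraries, with 16 and 12 of 24 log2 folds negative. The p53 target list had no call among 17 genes in the GFP+ labelled and 1 in the RFP+ labelled libraries, the growth arrest RNA Gas5 (-0.32). Its medians, -0.24 and -0.19, were lower than those of the mitotic list, with 12 and 10 of 17 log2 folds negative.

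In the list of unfolded protein and integrated stress, 3 of 21 genes were lower in the GFP+ labelled libraries, the endoplasmic reticulum chaperones Hsp90b1 (-0.21), Canx (-0.20) and Hspa5 (-0.19), and Hsp90b1 was lower also in those labelled RFP+ (-0.22). Ly6e (-0.37), an interferon-induced surface protein gene, was the 1 lower gene of 21 in the interferon list in the GFP+ labelled libraries, with none in those labelled RFP+. The medians of this list were -0.081 in the GFP+ labelled and -0.15 in the RFP+ labelled libraries, with 14 and 20 of 21 log2 folds negative. Of 9 chemokine and cytokine genes, none was called in the GFP+ labelled libraries, where Cxcl1 had -0.15 ± 0.49 and Ccl5 -1.47 ± 0.59 (SE). Ccl5 was there at 9.66 and 1.91 CPM in the S-phase-high against 6.80 and 30.2 CPM in the S-phase-low pools. Its values thus went opposite ways in the first and the second of these libraries. In those labelled RFP+, Cxcl1 (1.22) was higher and Ccl5 (-0.81, and -0.35 without the second library) lower, and the differences between the populations did not pass (edgeR adjusted p = 0.678 and 0.956). Cholesterol synthesis (14 genes), glycolysis and hypoxia (19) and immediate early genes (17) had no call in either population, which at this depth does not show that they were equal. Of 24 tested cell cycle, epithelial, mesenchymal, nucleolar and reporter genes fixed for naming, 19 and 20 were not called, with log2 folds from -0.69 to 0.83 and from -0.38 to 0.65.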

How the data were processed

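Per the labels' protocols, sorted cells went through Drop-seq and Nextera library preparation; the submitters' processing notes name GRCm38. The authors deposited raw counts per gene and cell for 4 libraries, each of 2 pooled lanes. No source used here gives the aligner or says whether molecular identifiers were collapsed. The table has 16647 gene rows, 772 of them without a count and 23 with date-like names. 2 barcodes occurred in more than 1 library. No doublet caller was run. Libraries of a population differed by more than sampling noise (chi-square per degree of freedom 1.37 for GFP+ and 1.33 for RFP+ labelled).

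Counts were summed per library and pool, with ties broken by column order, and columns run from deep to shallow cells. The test was edgeR's quasi-likelihood F test (edgeR 4.0.16, R 4.3.3) with TMM scaling, the library as a block and Benjamini-Hochberg adjustment at 0.05. All 8 pools entered 1 fit, so both populations share the spread (2 residual and infinite prior degrees of freedom, common biological coefficient of variation 0.0215). Genes needed a mean of 20 CPM and 20 counts, and the score genes stayed in totals but out of the tests. The SE was derived from a log2 fold and its F statistic. The library pairs the pools, since both hold cells of the same library. DESeq2 1.42.0 was an alternative, beside other filters, scores, depths and library sets. The fit was also run on simulated counts, drawn with the shared spread that the fit itself had estimated. Such a run cannot show how the fit behaves where genes differ in their spread between libraries.

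The members, the 26 gene lists and the naming rule were chosen with earlier results of these data known. The rule named a fixed set, per population and direction the 12 largest called log2 folds at 100 CPM or more (without histone, mitochondrial, ribosomal protein and gene model rows), per list the 4 largest at 50 CPM or more, and the largest differences between populations. Not all of these are described, and some called genes are not reported here. The promoters of higher genes were picked after the values were seen. Outside the rule, Hist1h1c, Hist1h2ak, Hist1h2an, Hist1h2bc, Hist1h3c, Hist1h4d, 2810417H13Rik, Prc1, Slbp, Brca2, E2f8, Pttg1, Tacc3, Smc4, Dut, Paics, Ppat, Atic, Ssrp1, Ezh2, Tipin, Smc1a, Itgb1, Dsp, Cxcl1, Ccl5, Hspa5, Cox6b1, Pa2g4 and mt-Nd5 were named after their values were seen, mostly because a list had few calls. Coordinates are from GENCODE M21 and promoters from RefSeq.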

Additional observations from a re-analysis of the deposited data

Results flagged for a closer look

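The effect of the score differed between the populations for 2 genes by the test of the difference itself. For mt-Rnr2 the difference of the log2 folds was -0.60 (GFP+ minus RFP+ labelled, edgeR adjusted p = 5.61e-23), lower in S-phase-high pools of 2 of 2 libraries in each population. For Gm26924 it was -0.26 (adjusted p = 7.07e-05), higher in 2 of 2 libraries in each population. Without Hist1h1b in the score the difference for Gm26924 was 0.18. The share of mitochondrially encoded counts and the gap in score between pools also differed between the populations, and their part in these 2 differences was not tested.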

How the results depend on the processing

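Counts of called genes depended on the tool, the depth and the score genes. Against 48 higher and 47 lower genes (GFP+ labelled), 58 and 46 (RFP+ labelled) and 0 and 2 for the difference between populations, these counts moved by over 1.5 times. With DESeq2, there were 7 higher and 5 lower (GFP+), 5 higher and 2 lower (RFP+), 0 lower (difference between populations). With no replicate block, there were 31 higher and 29 lower (GFP+), 30 lower (RFP+), 1 lower (difference between populations). With cells thinned to 1000 counts, there were 7 higher and 3 lower (GFP+), 7 higher and 1 lower (RFP+), 1 lower (difference between populations). Without the 5% of cells with most counts, there were 27 higher (GFP+), 38 higher (RFP+). With the score from Mcm2 to Mcm7, there were 0 higher and 1 lower (GFP+), 0 higher and 4 lower (RFP+), 0 lower (difference between populations). Without Hist1h1b in the score, there were 2 higher and 6 lower (GFP+), 9 higher and 24 lower (RFP+), 0 lower (difference between populations). With score genes weighted equally, there were 9 higher and 10 lower (GFP+), 13 higher (RFP+), 0 lower (difference between populations). With no filter beyond 20 counts, there were 18 lower (GFP+), 37 higher and 28 lower (RFP+). With Hist1h1b alone, there were 29 lower (GFP+), 24 lower (RFP+). With each population fitted apart, there were 24 higher and 22 lower (RFP+). With the score from the other 5 genes, there were 30 lower (RFP+). With cells of 1500 or more counts, there were 2 higher (difference between populations). Leaving out 1 library at a time, which leaves its population with a lone pair, gave 7 to 53 higher genes (GFP+), 4 to 47 lower genes (GFP+), 18 to 40 higher genes (RFP+), 18 to 31 lower genes (RFP+), 0 to 0 higher genes (difference between populations), 0 to 2 lower genes (difference between populations). The fit with no replicate block ignores that each pair of pools is from 1 library. The other counts stayed within 1.5 times, and the cause of the changes was not tested. Thinning lowers the counts and also changes which cells are pooled: 69.2% to 82.1% of the cells of an S-phase-high or S-phase-low pool were in it after thinning too. The scores without Hist1h1b, from it alone and with equal weights were added after seeing the data.

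Log2 folds of named genes that changed sign were as follows, and the cause was not tested. With the score from Mcm2 to Mcm7 the values were Hist1h1a -0.0596 (GFP+), Hist1h2ak -0.16 (RFP+), Tk1 -0.0770 (GFP+), Asf1b -0.22 (RFP+), Esco2 -0.10 (RFP+), Top2a -0.20 (GFP+), Top2a -0.21 (RFP+), mt-Nd2 0.27 (GFP+), Mmp14 0.18 (RFP+), Fn1 0.11 (GFP+), Fn1 0.0335 (RFP+), Hsp90b1 0.0347 (GFP+), Hsp90b1 0.0023 (RFP+), Brca2 -0.28 (GFP+), Smc4 -0.0225 (GFP+), Smc4 -0.21 (RFP+), Hat1 0.0018 (GFP+), Smc1a -0.0768 (RFP+), Cd24a 0.0004 (GFP+), Cxcl1 0.22 (GFP+), Hspa5 0.0019 (RFP+), Canx 0.0699 (RFP+), Ncl -0.0078 (GFP+), mt-Nd5 -0.14 (RFP+), Hist1h2bc 0.18 (RFP+). Without Hist1h1b in the score the values were Hist1h3c -0.0110 (RFP+), Esco2 -0.13 (RFP+), Top2a -0.18 (GFP+), Top2a -0.16 (RFP+), Cdc20 0.10 (GFP+), mt-Nd1 0.0425 (RFP+), mt-Cytb 0.14 (RFP+), mt-Nd2 0.15 (GFP+), Gm26924 -0.0501 (RFP+), Gm26924 0.18 (difference), Mmp14 0.20 (RFP+), Fn1 0.0432 (RFP+), Hsp90b1 0.0692 (RFP+), Smc4 -0.14 (RFP+), Ppat -0.0603 (GFP+), Hat1 0.32 (GFP+), Cxcl1 0.58 (GFP+), Hspa5 0.0193 (GFP+), Hspa5 0.0920 (RFP+), Canx 0.10 (RFP+). With cells thinned to 1000 counts the values were Rfc4 -0.0120 (RFP+), mt-Rnr2 0.0013 (RFP+), E2f8 -0.0585 (RFP+), Tacc3 -0.11 (GFP+), Smc4 -0.0060 (RFP+), Smc1a -0.12 (RFP+), Dsp 0.0692 (GFP+), Pa2g4 -0.0546 (RFP+). With Hist1h1b alone the values were Orc6 -0.0102 (RFP+), Nusap1 0.0459 (RFP+), Prc1 0.0796 (RFP+), Kif23 0.29 (RFP+), Mmp14 0.0882 (RFP+), Slbp -0.0213 (GFP+), Tacc3 -0.0933 (GFP+), Dut -0.0053 (RFP+), Itgb1 -0.0235 (RFP+), mt-Nd5 -0.36 (RFP+). With cells of 1500 or more counts the values were Asf1b -0.12 (RFP+), Pds5b -0.29 (GFP+), Hat1 0.17 (GFP+), Itgb1 -0.0554 (RFP+), Cxcl1 0.0075 (GFP+), Hspa5 0.0053 (RFP+), mt-Nd5 -0.13 (RFP+). With score genes weighted equally the values were Top2a -0.11 (GFP+), Top2a -0.0534 (RFP+), mt-Cytb 0.0101 (RFP+), Gm26924 0.14 (difference), Mmp14 0.12 (RFP+), Fn1 0.0903 (RFP+), Hsp90b1 0.0703 (RFP+), Smc4 -0.0924 (RFP+), Ppat -0.0468 (GFP+), Hat1 0.22 (GFP+), Cxcl1 0.44 (GFP+), Ccl5 0.23 (GFP+), Hspa5 0.0138 (GFP+), Hspa5 0.0827 (RFP+), Canx 0.0061 (RFP+). With the score from the other 5 genes the values were Kif23 0.12 (RFP+), Tacc3 -0.0276 (GFP+), Hat1 0.0287 (GFP+), Itgb1 -0.0219 (RFP+), Cxcl1 0.0295 (GFP+), mt-Nd5 -0.10 (RFP+). With pools taken within 5 depth bins the values were Fn1 0.0934 (RFP+), Cxcl1 0.10 (GFP+), Hspa5 0.0059 (RFP+). Without the 5% of cells with most counts the values were Fn1 0.15 (RFP+), Tacc3 -0.0030 (GFP+), Hat1 0.0277 (GFP+), Hspa5 0.0232 (RFP+). With DESeq2 the values were Hat1 0.0080 (GFP+), mt-Nd5 -0.0111 (RFP+). With no filter beyond 20 counts the values were Hat1 0.0089 (GFP+). With ties in reverse order the values were Itgb1 -0.0049 (RFP+). Without each library in turn the ranges that crossed 0 were Asf1b -0.0363 to 0.0601 (RFP+), Ccl5 -3.83 to 0.51 (GFP+), Cox6b1 -0.19 to 0.0032 (RFP+), Cxcl1 -0.38 to 0.10 (GFP+), Fn1 -0.32 to 0.22 (RFP+), Hat1 -0.13 to 0.15 (GFP+), Hist1h4d -0.42 to 2.54 (RFP+), Hspa5 -0.0570 to 0.0301 (RFP+), Itgb1 -0.0776 to 0.0855 (RFP+), Kif23 -0.21 to 0.0254 (RFP+), Pa2g4 -0.0455 to 0.23 (RFP+), Smc1a -0.17 to 0.56 (RFP+), Smc4 -0.0458 to 0.15 (RFP+), mt-Nd5 -0.40 to 0.36 (RFP+).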
